A study of Mus musculus with 8 samples.

Results

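Small structures are short stretches of DNA, of about 40 to 80 bp, that stay protected when the chromatin of condensing spermatids is digested with micrococcal nuclease (MNase), an enzyme that cuts DNA not covered by protein. Here the small structures of H2A.L.2-less condensing spermatids were compared with condensing nucleosomes of the same genotype, protected as fragments of about 130 to 170 bp. The members were all positions on chromosomes 1 to 19 of the corresponding 2 deposited lists, 4047666 small-structure summits and 3852646 nucleosome summits, out of 36905351 autosomal positions in the 8 lists of the series. Each small summit was described by its distance to the nearest nucleosome summit, by the height and fuzziness of both, and by the number of summits in windows of 100 kb.

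The series covers mouse testis fractions enriched in spermatocytes, round spermatids and condensing spermatids, from wild-type (WT) and from H2A.L.2-less animals. Nucleosome-sized fragments were sequenced at all 3 stages, and small structures at the condensing stage, with 1 library in each of the 8 groups. All groups are untreated testis fractions as far as the labels say, and the labels give no strain, age, allele design or number of pooled animals. Because the files hold positions and no expression values, the labelled stage could not be checked against marker genes.

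During the last steps of sperm formation the histones that wrap DNA give way to protamines, which pack the genome of the sperm head. Transition proteins take part in this change. H2A.L.2 is a testis-specific variant of histone H2A that is expressed together with the transition proteins and is known to allow them to load onto nucleosomes. MNase protection shows both canonical nucleosomes and smaller histone or transitional particles, without naming the proteins that protect the DNA.

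Each deposited position has a summit value, the coverage at its highest point, and a fuzziness score, given by the authors for the scatter of the fragments at it, where a low score is a sharp position. The median summit value was 160 among H2A.L.2-less small structures and 192 among nucleosomes, and the 99th percentile was 504 and 364. The scales are not tied to a common depth, so heights are given below as ranks within a list, in deciles from the lowest to the highest. The median fuzziness score was 50.2 for small structures, with 10% of them below 39.4 and 10% above 59.2, and 54.3 for nucleosomes, with the same limits at 49.4 and 58.3. Small structures thus had the wider range of sharpness. The depth of each library is unknown, and the lowest percentile of summit values was 96 and 160, so a weak position may be missing from either list. In the WT lists the lowest percentile was 272 for small structures and 168 for nucleosomes. With 1 library per group no difference between libraries was tested. The SD given below is taken over the 19 autosomes and describes variation along the genome, not between animals. Intervals cover counting error only.

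Small summits lay at nucleosome summits moderately more often than a shifted list gives. Of the H2A.L.2-less small summits, 940854 or 23.2% had a nucleosome summit within 40 bp (95% Wilson interval 23.2% to 23.3%, SD 1.13 points, from 21.4% to 25.7% on single autosomes). After the nucleosome list was moved by 5000 bp the share was 18.0%, so the deposited share was 1.29 ± 0.0322 times that level. A move of 1000 bp, which keeps more of the local crowding of summits, left 18.8% and a ratio of 1.23 ± 0.0210. In the other direction, 24.4% of nucleosome summits had a small summit within 40 bp, against 18.95% after the 5000 bp move. This second share varied more along the genome, from 19.1% to 30.02% on single autosomes. In WT the small-to-nucleosome share was 23.7% against 17.2% after the move, or 1.38 ± 0.0347 times. Because the WT small list is longer, the shares were also taken over the 3748879 highest positions of each of the 4 condensing lists, where the ratios were 1.29 ± 0.0331 in H2A.L.2-less and 1.38 ± 0.0352 in WT cells. The genotypes thus differed by more than the SD over autosomes, but with 1 library each the difference cannot be told apart from one between libraries.

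Most small summits nevertheless lay off the nucleosome summits. The median distance from a small summit to the nearest nucleosome summit was 130 bp (SD 9.26 bp), against 150 bp after the 5000 bp move. The distances 0 to 20 bp held 13.7% of small summits, 1.38 times the share after the move, and 20 to 40 bp held 9.51%, 1.18 times. Between 73 and 100 bp, just outside the edge of a nucleosome core, the share was 7.88% and the ratio 0.819. From 150 to 200 bp the share was 10.8% and the ratio again 1.18. Long distances were rare: 2.10% of small summits lay over 1000 bp from any nucleosome summit, against 4.62% after the move.

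Counting all pairs of small and nucleosome summits instead of the nearest one gave a curve with a peak at the nucleosome summit, a shoulder, a trough and a second peak. Relative to the mean density at 800 to 1000 bp, small summits stood at 1.42 ± 0.0244 at the nucleosome summit and at 1.11 at 40 bp. A shoulder of 1.12 ± 0.0223 followed at 50 bp. The lowest density was 0.77 at 90 bp. No small summits lie closer to each other than 100 bp, so one on a nucleosome summit excludes another 90 bp away. The part of this spacing in the trough was not tested. A second peak of 1.23 ± 0.0179 lay at 180 bp, about the distance of a neighbouring nucleosome, and from 220 to 310 bp the curve lay between 1.04 and 1.05, with 1.02 at 540 bp. The WT density on the nucleosome summit was 1.52, with 0.73 at 100 bp and 1.25 at 180 bp, so the H2A.L.2-less curve was flatter at the centre and in the trough and nearly as high at the second peak.

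**Figure D1:**
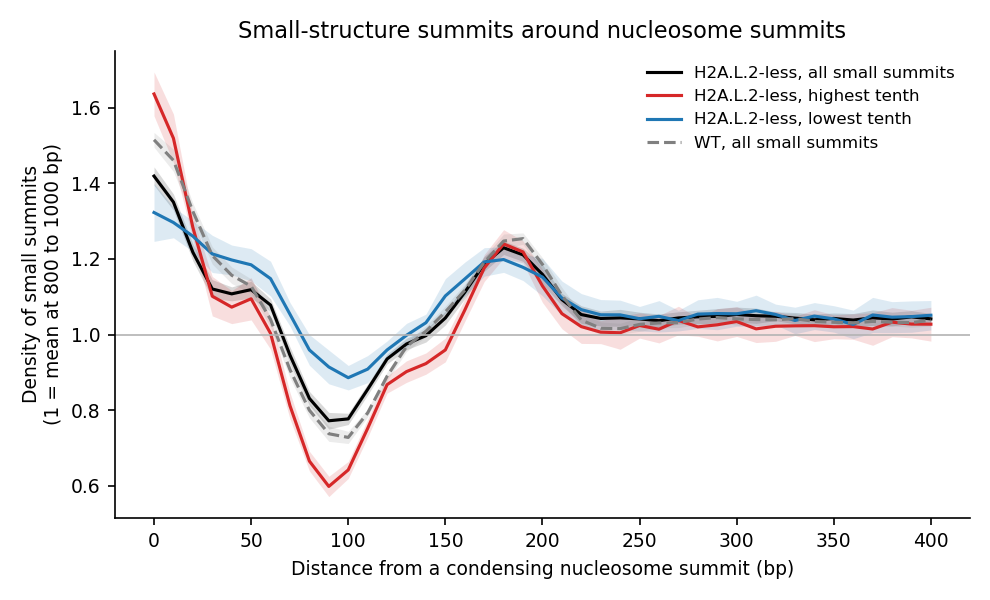
The plot shows the density of small-structure summits (y axis, relative to the mean at 800 to 1000 bp) by distance from condensing nucleosome summits (x axis, bp), with bands of 1 SD over the 19 autosomes. The H2A.L.2-less curve goes from 1.42 at the summit to 0.77 at 90 bp and peaks again at 180 bp, and the trough is deepest for the highest decile of small summits.

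The curve depended on the height of the small summits. For the highest decile of H2A.L.2-less small summits the density was 1.64 ± 0.0582 at the nucleosome summit and 0.60 ± 0.0269 at 90 bp. For the lowest decile it was 1.32 ± 0.0764 at the summit and 0.89 at 100 bp. The peak at 180 bp differed little, with 1.24 for the highest and 1.20 for the lowest decile. The height of the nucleosome made less difference at the summit and more at 180 bp. Around the highest decile of nucleosomes the density was 1.44 at the summit and 1.29 at 180 bp, and around the lowest decile 1.38 and 1.18. Where both were in their highest decile, the density reached 1.79 ± 0.223 at the summit and was 0.55 at 90 bp.

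Taller small summits were found at nucleosomes more often, but much of that gradient was also present after the move. In the lowest decile of summit values, from 16 to 96, 20.3% lay within 40 bp of a nucleosome summit, and in the highest decile, from 312 upwards, 29.4%. The lowest percentile of the list is also 96, so nearly all 492441 summits of the lowest decile are tied at 96. Statements on the lowest decile thus describe mostly this floor value. After the move by 5000 bp the shares went from 15.7% to 21.3% over the same deciles. The ratio to the moved share was 1.29 in the lowest decile, 1.25 in the eighth decile and 1.38 in the highest. The ratio of the highest decile was thus the largest of the 10, at 1.07 times that of the lowest, and the second lowest decile followed with 1.33. With the 1000 bp move the ratios were 1.26 in the lowest decile and 1.30 in the highest. In WT the ratios went from 1.37 in the lowest to 1.55 in the highest decile, with shares of 19.7% and 33.3%. Ranked by the height of the nucleosome instead, 21.9% of the lowest and 28.0% of the highest decile of nucleosomes had a small summit within 40 bp, 1.26 and 1.33 times the moved shares.

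The very highest small summits stood apart from this gentle gradient. Of the 4087 small summits in the highest 0.1% of summit values, which began at 952 or 5.95 times the list's median, 58.5% lay within 40 bp of a nucleosome summit, against 32.7% after the move. Of those that did, 52.3% had a nucleosome that was itself among the 3870 highest of its list. Summit values reached 9.1153e+06 among small structures and 2.94035e+07 among nucleosomes, against medians of 160 and 192. Such values are far outside the rest of the lists, and what gives rise to them was not tested. In WT the corresponding shares were 62.2%, 34.9% and 47.95%.

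Within matched pairs, the heights of the 2 classes were almost uncorrelated. Over the 940854 pairs within 40 bp, the rank correlation of summit values was 0.030 ± 0.018, and after the move it was 0.037 over 729560 pairs. Sharpness was weakly shared: the rank correlation of fuzziness scores was 0.102 ± 0.00712 in matched pairs and 0.022 after the move. Pairs are not independent points, since neighbouring pairs share a region, its coverage and its base composition. The WT values for fuzziness were 0.142 and 0.023.

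**Figure D2:**
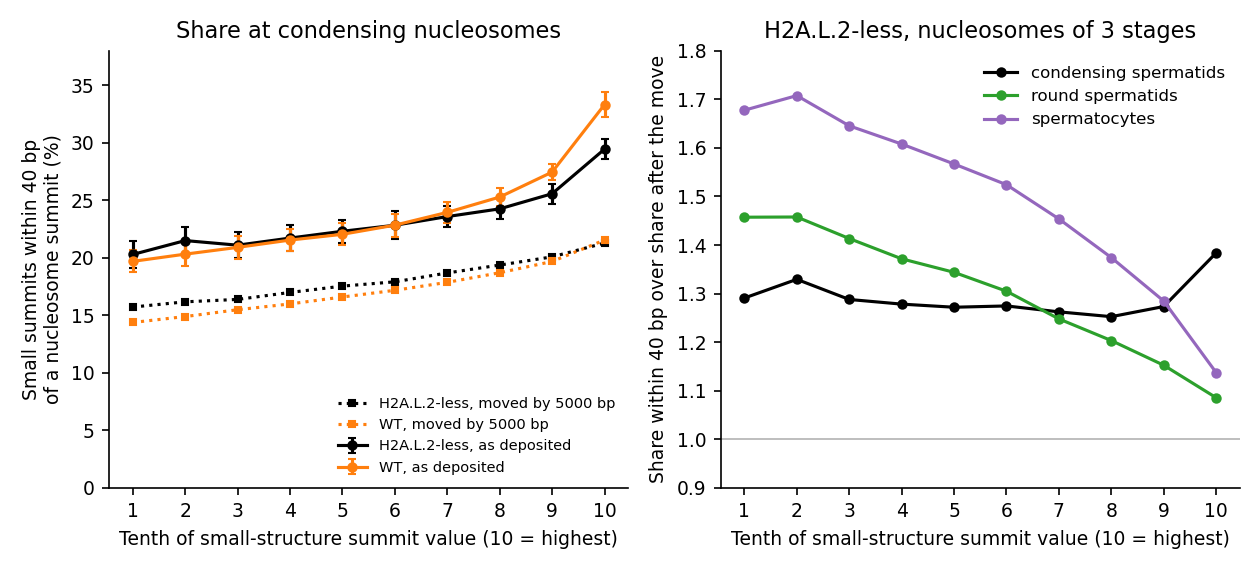
Left, the share of small summits within 40 bp of a condensing nucleosome summit (y axis, %) by decile of small-structure summit value (x axis, 10 is the highest), as deposited and after a 5000 bp move, with error bars of 1 SD over 19 autosomes. Right, the deposited over the moved share for H2A.L.2-less nucleosomes of 3 stages, which ends at 1.38 for condensing spermatids, 1.09 for round spermatids and 1.14 for spermatocytes.

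The nucleosomes of the preceding stages gave a gradient in the other direction. Of all H2A.L.2-less small summits, 24.5% lay within 40 bp of an H2A.L.2-less round spermatid nucleosome summit, and 31.4% within 40 bp of a spermatocyte one. For round spermatids the share was 26.7% in the lowest and 20.8% in the highest decile of small summits, while the moved share was 18.4% and 19.2%, so the ratio was 1.46 and 1.09. For spermatocytes the shares were 32.2% and 26.3%, and the ratios 1.68 and 1.14. The tallest H2A.L.2-less small structures were the ones least often found where nucleosomes had been at the earlier stages, and the ones most often found at condensing nucleosomes. Of the highest decile, 70.9% lay in the quintile of 100 kb windows richest in small summits, against 23.7% of the lowest decile. The shares at earlier stages were not taken within windows of like density, so the part of window density in this gradient was not tested. In WT the shares at round spermatid nucleosomes went from 38.5% to 43.7% from the lowest to the highest decile, while the ratio to the moved share went from 1.88 to 1.47. The raw WT share thus ran the other way and the ratio the same way, and this difference between genotypes was not tested. The fragment range is given for the condensing libraries only, so stage and fragment selection cannot be told apart here.

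Small summits at condensing nucleosomes were also more often at the other nucleosome lists. Of those within 40 bp of an H2A.L.2-less condensing nucleosome, 33.7% had a WT condensing nucleosome within 40 bp, against 18.6% of those over 73 bp from one. The shares after the 5000 bp move were 18.7% and 16.9%, so the ratios were 1.802 and 1.10, the latter close to the moved level. For H2A.L.2-less round spermatids the shares were 31.0% and 21.7% (ratios 1.61 and 1.16), and for spermatocytes 38.8% and 28.1% (ratios 1.78 and 1.36). The sets were chosen by their distance to a condensing nucleosome summit. Nucleosome lists that share positions would give such differences by themselves, and how far the lists share positions was not measured here. A WT small summit lay within 40 bp of 75.7% of the H2A.L.2-less small summits (29.3% after the move), of 79.6% of those at a condensing nucleosome and of 74.6% of those over 73 bp from one. By height, the share with a WT small summit went from 58.3% in the lowest to 84.7% in the highest decile, but the moved share went from 23.1% to 37.8%, so the ratio was 2.53 and 2.24. Both sets were thus found again in WT in most cases.

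Whether small summits at nucleosomes were sharper or fuzzier than those elsewhere depended on their height. In the lowest decile, the median fuzziness of small summits within 40 bp of a nucleosome was 1.22 ± 0.238 above that of summits over 73 bp from one, and it was above it on 19 of 19 autosomes. The difference was 0.47 ± 0.282 in the second decile and 0.91 ± 0.221 in the third, so the decline was not even. It was -0.00476 in the seventh decile, and in the highest decile it was -0.57 ± 0.129, with matched summits lower on 19 of 19 autosomes. Weak small summits were therefore fuzzier at nucleosomes and strong ones sharper. In WT the differences went from 0.84 ± 0.159 to -0.57 ± 0.110, with the first negative value in the sixth decile. Nucleosome summits showed a smaller version of this, from 0.35 in the lowest decile of nucleosome height to -0.34 in the highest. These differences are small beside the range of 39.4 to 59.2 that held the middle 80% of small summits.

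The share at nucleosomes was highest for small summits of middling sharpness. In the sharpest decile 19.9% lay within 40 bp of a nucleosome summit, 1.27 times the moved share, in the fourth decile 24.6% or 1.40 times, and in the fuzziest decile 20.9% or 1.05 times. With the 1000 bp move the last ratio was 0.989, so the fuzziest small summits were at nucleosomes no more often than nearby positions. Among nucleosomes the ratio was 1.51 for the sharpest decile of nucleosomes and 1.09 for the fuzziest. By distance, the median fuzziness of small summits was 50.05 ± 0.534 at the nucleosome summit, 51.7 ± 0.628 at about 120 bp and 50.1 ± 0.618 at about 180 bp. Small summits were thus fuzziest close to the stretch where they were rarest. The nearest nucleosome had a median fuzziness of 54.1 when the small summit lay on it, 54.7 when it lay at about 60 bp and 53.8 when it lay at about 200 bp.

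**Figure D3:**
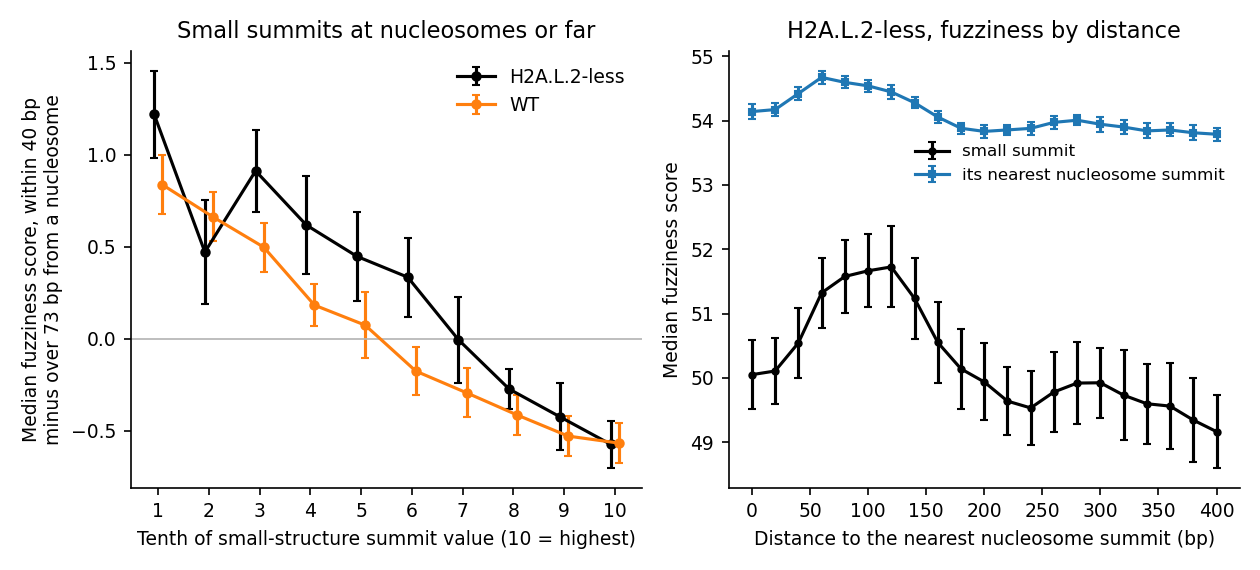
Left, the median fuzziness score of small summits within 40 bp of a nucleosome summit minus that of summits over 73 bp away (y axis) by decile of small summit value (x axis); right, the median fuzziness (y axis) of small summits and of their nearest nucleosome by distance (x axis, bp, steps of 20 bp) in H2A.L.2-less cells. Bars are 1 SD over 19 autosomes; the difference goes from 1.22 to -0.57, and small summits are fuzziest at about 120 bp.

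The stretches between neighbouring nucleosome summits showed where small summits were placed when no other nucleosome was called. Between nucleosomes 190 bp apart (80855 such gaps), small summits stood at 1.49 ± 0.0567 times the mean of the gap on the nucleosome summits and at 0.52 ± 0.0512 at 90 bp, near the middle. Here too a small summit on the nearer nucleosome summit excludes another at 90 bp, given the 100 bp spacing. Its part in the low point was not tested. Between nucleosomes 240 bp apart, a second maximum of 1.19 ± 0.0914 lay 50 bp inside each summit, and the density was 0.67 at 100 bp and 0.77 ± 0.106 at 120 bp, the middle. In gaps of 390 bp (37777 gaps), where the middle lies about 1 nucleosome repeat from both sides, the density was 1.35 ± 0.0917 on the summits, 0.71 ± 0.101 at 100 bp and 1.20 ± 0.0838 at 190 bp. Small summits were therefore again frequent where a nucleosome would fit but none was called. In WT the middle of the 390 bp gaps stood at 1.30 ± 0.0924 and the low point of the 190 bp gaps at 0.45 ± 0.0549. Between nucleosomes 130 bp apart, closer than a nucleosome is wide, the density was 1.25 ± 0.0793 on the summits, 0.82 ± 0.0588 at 30 bp and 1.04 ± 0.0628 at 60 bp.

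**Figure D4:**
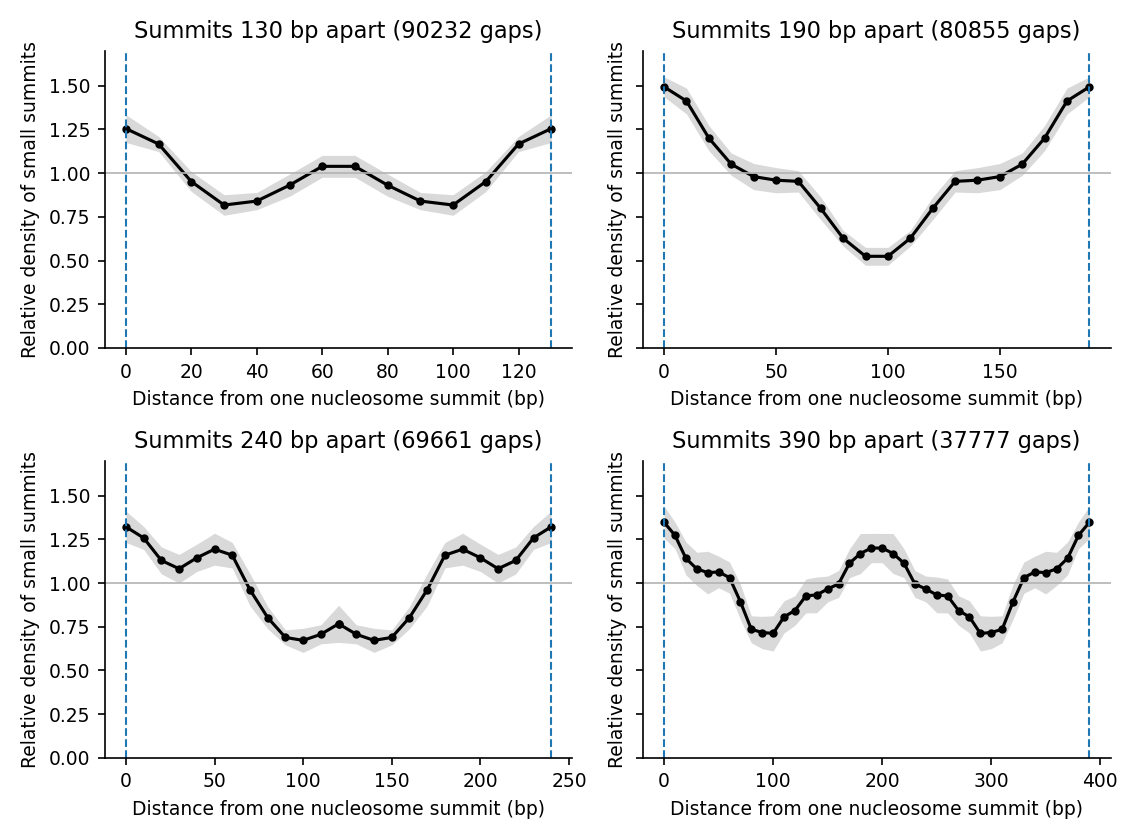
Each panel plots the density of H2A.L.2-less small summits (y axis, relative to the mean of the gap) between neighbouring nucleosome summits (dashed lines) a fixed distance apart (x axis, bp), with bands of 1 SD over 19 autosomes. The profile was averaged over both directions, so the mirror symmetry is built in; the low point near the middle of 190 bp gaps is 0.52 and the middle of 390 bp gaps is 1.20.

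The number of small summits per 100 bp between nucleosomes differed little with the distance between them up to about 400 bp, while the number per gap went from 0.307 in gaps of 100 to 150 bp to 0.908 in gaps of 300 to 400 bp. Gaps of 100 to 150 bp held 0.249 ± 0.0238 small summits per 100 bp, and 69.7% of these gaps held none. The density was 0.274 ± 0.0262 in gaps of 200 to 250 bp, 0.265 ± 0.0269 in gaps of 300 to 400 bp and 0.212 ± 0.0250 in gaps of 600 to 1000 bp. In gaps of over 2000 bp it was 0.0539 ± 0.00822, against 0.0828 after the move. Regions without called nucleosomes were thus also poor in small structures, and 31.6% of these longest gaps held none. The density was taken over the full gap length, and the alignable part of these gaps is not known.

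Along the chromosomes, both classes were dense in the same windows of 100 kb, but small structures were far more unevenly spread. In the 23172 autosomal windows with at least 100 summits of both lists together, the rank correlation of the numbers was 0.882, and 0.776 to 0.921 within single autosomes. Windows are not independent, since neighbours share a region and both counts share its alignable length. The number of small summits per window was 48 at the 10th percentile, 140 at the median and 360 at the 90th percentile, a range of 7.5 times. For nucleosomes it was 88, 160 and 244, a range of 2.77 times. As a result the ratio of small structures to nucleosomes went with the density of small structures: its rank correlation with the number of small summits, which is part of the ratio, was 0.909, and with the number of nucleosomes 0.617. Over whole autosomes the ratio ran from 0.896 on chromosome 3 and 0.936 on chromosome 1 to 1.22 on chromosome 17 and 1.25 on chromosome 11.

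Relative to the ratio of the whole lists (1.05), 2406 windows (10.4%) had over 1.5-fold more and 8261 (35.7%) over 1.5-fold fewer small summits than nucleosomes would give. Centred on the median window, which lay at a log2 ratio of -0.26, these numbers were 5444 (23.5%) and 5246 (22.6%). In WT the calls against the whole-list ratio were 1240 (5.28%) and 7124 (30.3%), and centred on the median window 3160 (13.4%) and 5369 (22.8%). Between genotypes, which share no library, the window ratios had a rank correlation of 0.956 over 23137 windows, and the 10th and 90th percentile of the difference (H2A.L.2-less minus WT) were -0.33 and 0.20 on the log2 scale. Of 8231 windows low in H2A.L.2-less cells and 6824 low in WT, 6418 were low in both, and of 2406 and 1236 high windows 1023 were high in both. The order of the windows was thus much alike in both genotypes, whereas more windows passed the fold on the high side in H2A.L.2-less cells, a difference that was not tested.

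Neighbouring windows resembled each other, and part of the uneven windows lay in long runs. Window ratios 100 kb apart had a rank correlation of 0.847, and those 1000 kb apart 0.484. The median run was 2 windows among those low in small structures and 1 window among the high ones. Of the low windows, 37.1% lay in 198 runs of at least 10 consecutive windows, and of the high ones 22.2% lay in 34 such runs, so most lay in shorter ones. In WT 32.1% of the low windows lay in 143 such runs and 3.31% of the high ones in 3. The longest low run was chr1:99700001-106800000 (mm9), 7.1 Mb with 3879 small and 8476 nucleosome summits. The longest high run was chr8:121800001-125400000, 3.6 Mb with 16992 small and 8498 nucleosome summits. Both held nearly the same number of nucleosomes, in stretches that differ in length.

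Single windows reached wider ratios, ranked here among windows with at least 50 summits of each class and at least 1 Mb apart. The lowest was chr6:130700001-130800000, with 63 small and 314 nucleosome summits (log2 ratio -2.39), followed by chr3:106000001-106100000 with 92 and 367 (-2.07) and chr7:24500001-24600000 with 87 and 312 (-1.91). These windows are not poor in nucleosomes: each had over the 90th percentile of 244. In WT the same windows stood at -2.06, -1.90 and -1.57. The highest were chr12:84400001-84500000 with 182 small and 61 nucleosome summits (1.51), chr8:123000001-123100000 with 542 and 192 (1.43) and chr2:172700001-172800000 with 472 and 197 (1.19). In WT these stood at 0.99, 0.76 and 0.70, on the same side. Some windows under the limit of 50 summits would have entered this ranking in H2A.L.2-less cells. For example, chr4:42000001-42100000 with 201 small and 38 nucleosome summits stood at 2.33, past the highest named window. At the low end, chr6:133400001-133500000 with 47 and 183 stood at -2.03, between the named windows at -2.07 and -1.91. Genes in these windows are not named here, because the gene annotation at hand is of another build than the mm9 coordinates.

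The density of a window went with the placement, height and fuzziness of its small structures. When windows were divided into 5 groups by their number of small summits, the share at nucleosomes was 17.2% in the poorest and 25.9% in the richest quintile. The share after the 5000 bp move was 9.09% and 21.5%, so the ratio was 1.89 in the poorest quintile, 1.38 in the middle one and 1.20 in the richest. With the 1000 bp move the ratios were 1.61, 1.28 and 1.18, in the same order. The ratio was thus highest where small structures were sparse. The median distance to a nucleosome summit was 190 bp in the poorest and 110 bp in the richest quintile.

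The richest quintile of windows held 42.7% of all small summits and 70.9% of those in the highest decile, but 23.7% of those in the lowest decile. For nucleosomes the same windows held 29.0% of all summits and 32.2% of the highest decile. The mean rank of small summits was 35.0% in the poorest and 60.1% in the richest windows, and their median fuzziness 46.7 and 52.2, so small structures were taller and fuzzier where they were dense. Nucleosome fuzziness was 53.6 and 54.7. Within the same windows the ratio was higher for tall small summits. In the richest quintile 29.7% of the highest decile and 23.5% of the lowest decile lay at a nucleosome, 1.31 and 1.14 times the moved shares. In the poorest quintile these shares were 26.1% and 16.0%, or 2.23 and 1.82 times. In all 5 groups of windows the ratio was therefore higher for tall than for weak small summits, also with the 1000 bp move, where it was 1.26 and 1.15 in the richest group. Since sharpness, height and density move together over windows, the part of window density in the differences of fuzziness above was not tested.

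**Figure D5:**
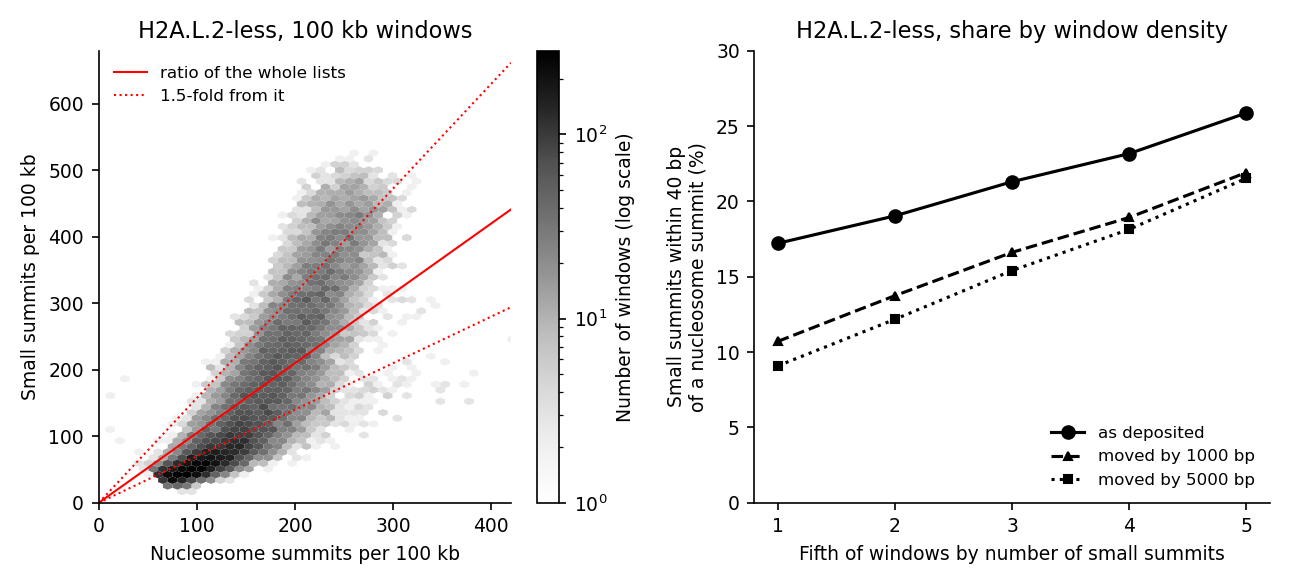
Left, the number of H2A.L.2-less small summits (y axis) against nucleosome summits (x axis) in 23172 windows of 100 kb, shaded by the number of windows on a log scale, with lines at the ratio of the whole lists and 1.5-fold from it. Right, the share of small summits within 40 bp of a nucleosome (y axis, %) by quintile of windows (x axis, 5 is the richest in small summits), which goes from 17.2% to 25.9% as deposited and from 9.09% to 21.5% after the 5000 bp move.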

How the data were processed

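Chromatin was digested with MNase, and per the labels' protocols the particles were fractionated on a sucrose gradient. Per the series description, the condensing fragments were separated by electrophoresis, and aligned reads of 3 sequencing runs were joined, giving each sample 207000000 to 753000000 reads. Bowtie2 2.2.9, deepTools 2.2.4 and mm9 are named in the submitters' processing notes. Thresholds of the position caller and the treatment of duplicate reads are not given in the sources used here. The columns are start, end, summit, summit value and fuzziness score, per the file headers. The summit value deposited is a coverage signal, a multiple of 4, without visible depth scaling. The fuzziness score was used as the authors deposited it.

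Positions on chromosomes 1 to 19 were used. All are 140 bp wide, no summits of a list are closer than 100 bp, and 94.9% of nucleosome and 97.0% of small summits lie on a 10 bp grid. A summit was matched with one of the other list within 40 bp. The comparison level came from moving one list by 5000 bp. Distance curves used 10 bp bins. Deciles are of percentile ranks, with ties averaged, so their sizes are unequal. Windows of 100 kb needed at least 100 summits. The windows named had the 3 highest or 3 lowest log2 ratios, with at least 50 summits of each class and over 1 Mb apart. The members, lists and rules were chosen with earlier results of these data known, and the measures by gap, earlier stage, quintile of windows and run, with the move by 1000 bp, equal lengths of the 4 condensing lists and the median window as centre, were added after the files were seen. Groups had 1 library, so no test was made. Analyses used Python 3.11.15, numpy 2.4.6, pandas 2.3.3, scipy 1.17.1 and matplotlib 3.10.9. On simulated data, the matching recovered 59.7%, the share made, of 19000 positions.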

Additional observations from a re-analysis of the deposited data

How the results depend on the processing

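Of 33 alternatives over 8 results, 1 turned a direction, 23 kept it with a changed value and 9 left the value about the same. The fuzziness of small summits at nucleosomes minus that of far ones, averaged over deciles, was 0.27 and turned to -0.17 for positions at or above the median value; it was 0.070 within 20 bp and 0.29 without division by height. The ratio of the small share to its moved share (1.29) was 1.38 within 20 bp, 1.22 within 73 bp, 1.29 above the median value, 1.32 with a 20000 bp move and 1.23 with a 1000 bp move. For nucleosome summits (1.29) the values were 1.38, 1.22, 1.29, 1.32 and 1.23 in the same order. The highest decile over the lowest (1.07) was 1.17 within 20 bp, 1.01 within 73 bp, 1.09 with equal list lengths, 1.06 without the highest 0.1% of positions and 1.03 with a 1000 bp move, so a gradient with height beyond the moved level is hardly seen within 73 bp. The density at 100 bp (0.78) was 0.81 against 1800 to 2000 bp and 0.68 above the median value. The window rank correlation (0.88) was 0.92 over 2417 windows of 1 Mb and 0.68 above the median value, where 15431 windows were kept. Windows past 1.5-fold numbered 10667, against 3671 past 2-fold (131 higher, 3540 lower) and 991 of 1 Mb. No paired analysis was possible because each group has 1 library, and for the same reason no replicate could be left out. The depth of the lists is unknown, which limits how far numbers of positions can be compared.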
